A study of Mus musculus with 6 samples.

Results

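The 37 DNA replication genes described here were fixed as a list of symbols, and all 37 were found once among the 35905 genes with a count. They are the 6 MCM helicase subunits, 4 factors that recognise and license origins, the helicase activators Cdc45 and Mcm10, the 4 GINS subunits, 6 polymerase and primase subunits, the sliding clamp with 4 subunits of its RFC loader, 2 enzymes that join Okazaki fragments, 4 enzymes of nucleotide supply and 4 regulators of S phase. RNA was sequenced from the mouse mammary tumour lines EO771-tdT-Parental and EO771-tdT-LM2, called Parental and LM2, with 3 libraries of each. The titles of the Parental libraries add the token Ac6, which the labels do not explain. Both lines carry the genotype label WT and were cultured for 48 h in RPMI medium, supplemented with fetal bovine serum at 10%, to about 75% confluence. How LM2 was derived, whether either line is a single clone, and whether libraries came from separate cultures are not stated in the labels, so p-values measure the spread between these libraries, which may be technical.

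Parental libraries held 36597892 to 45849019 estimated counts and LM2 libraries 33922699 to 38182191. With 3 libraries per line, no test for an outlying library was made. Counts are given as CPM, scaled so that every library has the same total. Across genes, which do not count as replicates, Pearson correlations of log2 CPM ranged from 0.991 to 0.994 between libraries of the same line. Of the markers of mammary epithelium, Krt8 reached 420 CPM (Parental) and 568 CPM (LM2), while the epithelial cadherin Cdh1 (0.187 and 0.0938 CPM) and Krt18 (0.0449 and 0.125 CPM) were near 0 in both. Epcam rose from 0.154 to 14.97 CPM and Krt14 from 1.11 to 8.47 CPM, and Esr1 fell from 0.537 to 0.187 CPM. The 9 epithelial markers summed to 416 to 429 CPM in Parental and 584 to 604 CPM in LM2. The 8 leukocyte markers summed to 4.24 to 4.52 CPM in Parental libraries and 3.39 to 3.98 CPM in LM2 libraries, with Ptprc at 0.0651 and 0.0745 CPM. Most of the leukocyte sum was Lyz2, which fell from 2.51 to 0.831 CPM, and Cd68, which rose from 1.75 to 2.68 CPM. The 7 fibroblast and endothelial markers summed to 129 to 133 and 175 to 196 CPM. Pdgfra accounted for 126 and 181 CPM of that sum, and Dcn was at 0.0816 and 0.0781 CPM. Col1a2 fell from 0.926 to 0.232 CPM, while Cdh5 rose from 0.18 to 0.668 CPM. The part of these marker differences in the results was not tested.

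Replication starts when the origin recognition complex, Cdc6 and Cdt1 load the ring of MCM subunits onto DNA in G1. In S phase, kinases, Cdc45, Mcm10 and GINS turn that ring into the active helicase, polymerase alpha with primase lays primers, and the clamp PCNA, loaded by RFC, holds the replicative polymerases delta and epsilon on the template. E2F transcription factors, released from pocket proteins such as Rb by cyclin-dependent kinases, switch many of these genes on at the border of G1 and S, and their transcripts are widely used as signs of proliferation in tumours.

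Promoters that carry E2F-type sites are shown because the list includes both E2F1 and many of its known targets. RefSeq promoter windows (build GRCm38.p6, 250 bases before to 50 bases after a start) were given for 29 of the 37 genes. The E2F-type words TTTCCCGC, TTTCGCGC, TTTGCCGC and TTTGGCGC, searched on both strands with overlapping words counted separately, occurred in a window of 13 of those 29 genes (44.8%), against 704 of 27025 genes (2.60%) in the whole table. The word CCAAT was found in 17 of the 29 genes (58.6%, against 41.1% of all genes). A CHR word (TTTGAA or TTCGAA) was found in 6 (20.7%, against 21.7%). A gene can have several windows. The 5 genes with more than 1 E2F-type word are printed 5′ to 3′ on the gene's strand, with those words in capitals. They are Mcm5 (chr8:75109259-75109558, plus strand), Mcm6 (chr1:128359656-128359955, minus), Mcm7 (chr5:138171834-138172133, minus), Mcm3 (chr1:20820263-20820562, minus) and Rfc3 (chr5:151651159-151651458, minus).
Mcm5: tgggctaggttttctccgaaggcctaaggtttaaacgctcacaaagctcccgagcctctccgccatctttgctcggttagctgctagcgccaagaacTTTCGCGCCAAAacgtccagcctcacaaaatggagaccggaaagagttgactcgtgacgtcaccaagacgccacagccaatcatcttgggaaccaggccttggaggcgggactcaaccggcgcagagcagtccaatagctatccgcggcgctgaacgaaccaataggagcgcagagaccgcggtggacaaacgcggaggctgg
Mcm6: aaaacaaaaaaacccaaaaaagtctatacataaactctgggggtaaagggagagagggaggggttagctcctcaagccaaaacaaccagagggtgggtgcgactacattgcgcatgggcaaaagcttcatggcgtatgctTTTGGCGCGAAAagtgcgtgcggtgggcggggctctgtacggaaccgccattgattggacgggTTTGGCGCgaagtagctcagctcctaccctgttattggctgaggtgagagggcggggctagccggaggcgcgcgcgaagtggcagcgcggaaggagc
Mcm7: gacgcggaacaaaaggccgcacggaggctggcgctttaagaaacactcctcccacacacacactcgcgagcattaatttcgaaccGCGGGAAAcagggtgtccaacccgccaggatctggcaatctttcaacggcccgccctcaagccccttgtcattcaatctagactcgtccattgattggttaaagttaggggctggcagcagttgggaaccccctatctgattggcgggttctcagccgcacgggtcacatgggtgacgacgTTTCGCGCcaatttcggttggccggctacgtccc
Mcm3: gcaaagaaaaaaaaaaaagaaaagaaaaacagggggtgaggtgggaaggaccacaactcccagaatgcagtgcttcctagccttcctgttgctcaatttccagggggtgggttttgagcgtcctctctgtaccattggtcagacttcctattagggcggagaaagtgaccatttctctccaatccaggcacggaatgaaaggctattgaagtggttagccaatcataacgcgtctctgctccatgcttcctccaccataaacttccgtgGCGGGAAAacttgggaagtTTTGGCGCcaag
Rfc3: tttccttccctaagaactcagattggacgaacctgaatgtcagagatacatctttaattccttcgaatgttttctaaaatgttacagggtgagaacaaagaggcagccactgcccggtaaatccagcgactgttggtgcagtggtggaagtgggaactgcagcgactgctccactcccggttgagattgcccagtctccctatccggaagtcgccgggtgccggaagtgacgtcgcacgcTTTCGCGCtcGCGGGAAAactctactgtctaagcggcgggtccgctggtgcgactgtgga
In Mcm5 and Mcm6 a pair of words on opposite strands overlaps in 1 run, beginning at position -153 from the Mcm5 start and -110 from the Mcm6 start. In Mcm7 the word at position 16 shares its last base with a CCAAT word on the same strand. In Rfc3 the words lie at -10 and 0. Positions are those of a word's first base, with the start as 0, and a word on the opposite strand reads as its reverse complement. These are matches of letters, and binding was not measured.

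The replication genes were mostly slightly lower in LM2. In the quasi-likelihood test of edgeR, with p-values adjusted after Benjamini and Hochberg over 13247 genes, 21 of the 37 were lower in LM2, 7 were higher and 9 did not pass at an adjusted p of 0.05. Among all tested genes 31.1% were lower and 31.4% higher (62.4% in either direction), and among the 8834 genes of at least 10 CPM, the range where all 37 lie, 38.9% were lower and 34.1% higher. The median log2 fold change (LM2 minus Parental) was -0.13 for the 37 genes and 0.00 for all tested genes. LM2 and Parental libraries did not overlap for 29 of the 37 (78.4%), against 67% of all tested genes and 76.3% of those of at least 10 CPM. Most differences were small: 23 of the 28 called genes differed by less than 1.3-fold. In bulk RNA, fewer cells in S phase and less transcript per cell cannot be told apart.

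**Figure D1:**
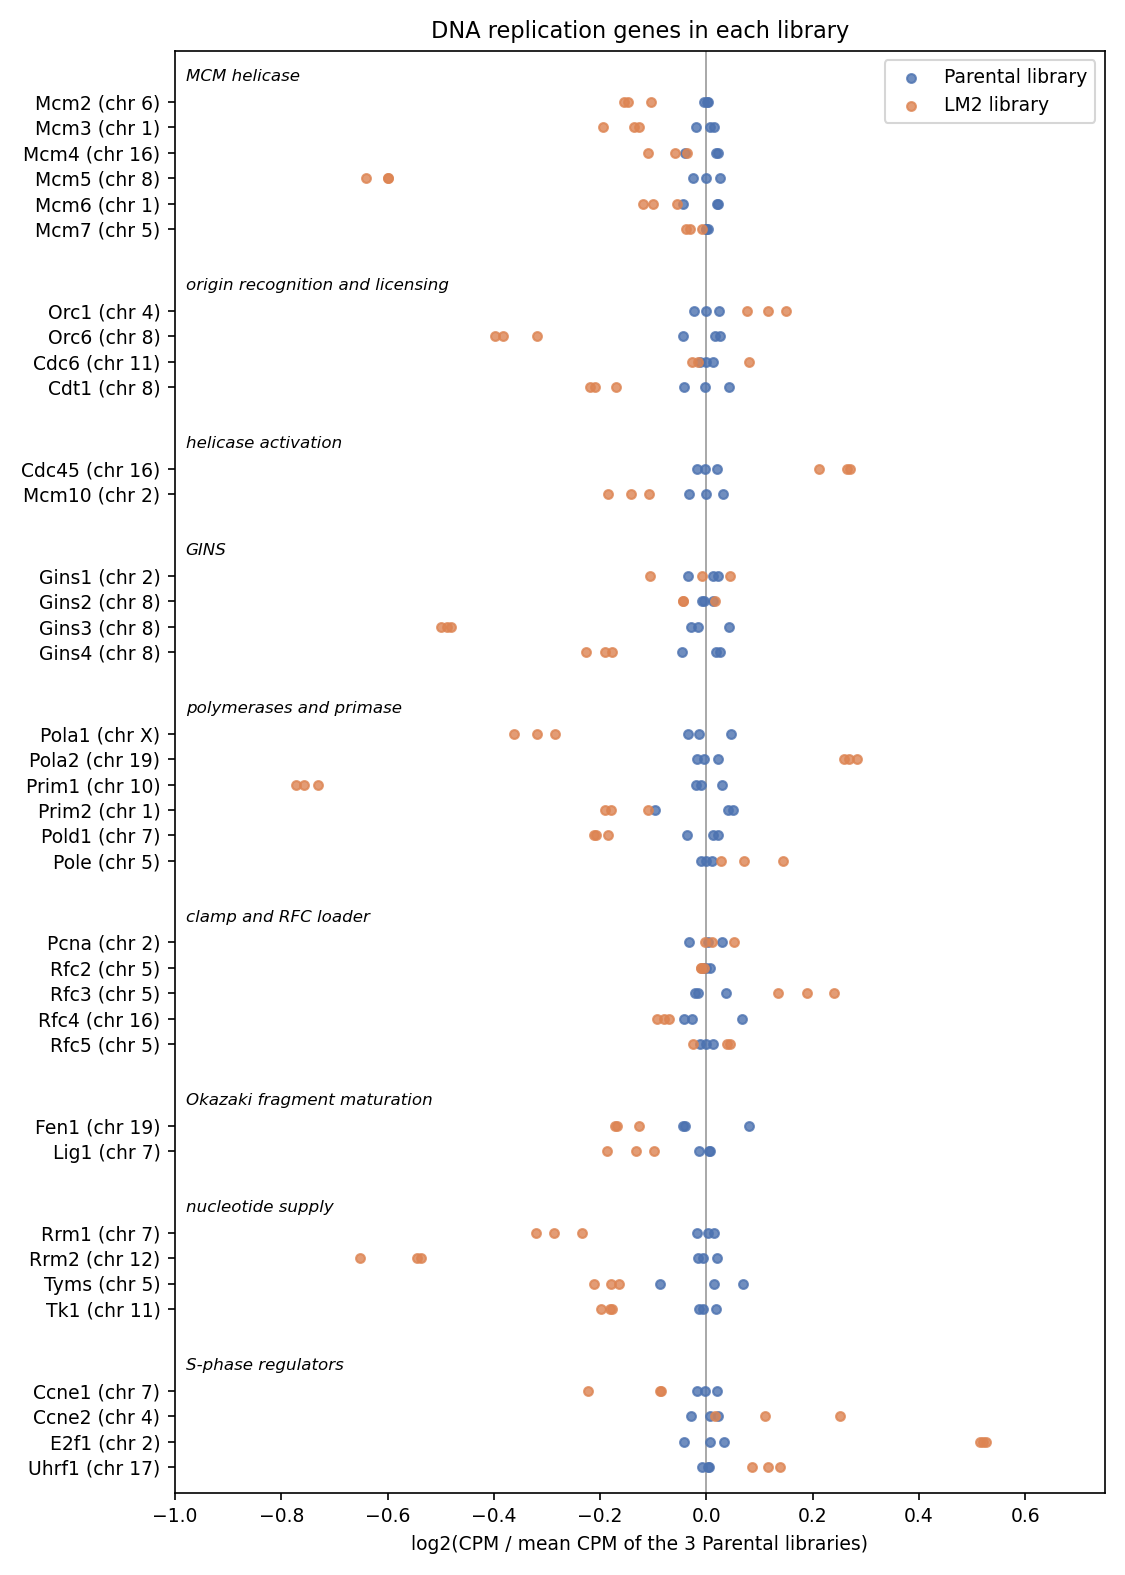
Each point is 1 library (blue, Parental; orange, LM2; 3 each), plotted as log2 of its CPM over the mean CPM of the 3 Parental libraries, with genes grouped by complex and labelled with their chromosome. The LM2 points of Prim1, Mcm5, Rrm2 and Gins3 lie farthest to the left and those of E2f1 farthest to the right, while the median of all 37 genes lies between -0.12 and -0.10 in each LM2 library.

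All 6 MCM subunits, which form the ring-shaped helicase motor, had a lower mean CPM in LM2, and 5 passed the test, but 1 subunit stood out. Mcm5, whose junction with Mcm2 is the gate through which DNA enters the ring, was at 332, 326 and 338 CPM in Parental replicates 1 to 3 and at 219, 219 and 213 CPM in LM2 replicates 1 to 3. The lines did not overlap, and the log2 fold change was -0.61 ± 0.02 (SE; edgeR adjusted p = 3.64e-15), 1.53-fold lower. Mcm3 was at 232, 234 and 228 CPM in Parental and 212, 210.4 and 202 CPM in LM2, a log2 fold change of -0.15 ± 0.03 (edgeR adjusted p = 1.98e-05). Mcm2 was at 251, 249.8 and 251 CPM against 226, 233 and 225 CPM, a log2 fold change of -0.14 ± 0.02 (edgeR adjusted p = 4.53e-05). Thus Mcm2 and Mcm3 were separated by line, at changes of 1.10-fold and 1.11-fold. Mcm6 was at 240.4, 241 and 229.9 CPM against 221, 228 and 218 CPM (log2 fold change -0.09 ± 0.03, edgeR adjusted p = 0.00486). The Mcm6 gap between the lowest Parental and highest LM2 library was small, and its call was lost on log2(TPM + 1) values (limma adjusted p = 0.13).

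Mcm4 and Mcm7 differed least among the helicase subunits. Mcm4 was at 195, 194 and 186 CPM in Parental and 184, 187 and 178 CPM in LM2, with the lines overlapping (log2 fold change -0.07 ± 0.03, edgeR adjusted p = 0.0309). That call was lost without Parental replicate 1 (edgeR adjusted p = 0.125), Parental replicate 2 (0.107) or LM2 replicate 3 (0.112), and with DESeq2 (0.0709). Mcm7, a subunit of the catalytic core whose introns host microRNAs, was at 311 CPM in each Parental library and 304, 309 and 303 CPM in LM2. The Mcm7 lines did not overlap, but the difference did not pass (log2 fold change -0.03 ± 0.02, edgeR adjusted p = 0.355). Of the 31-base words in Mcm7 transcripts, 33.4% occur in other genes, most in the near-silent Gm5487 (0.0147 and 0.0285 CPM).

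Of the 4 factors that choose and license origins, 2 fell and 2 did not pass. Orc6, the smallest subunit of the origin recognition complex, was at 65.4, 65.8 and 62.7 CPM in Parental and 49.6, 51.8 and 49.0 CPM in LM2. It fell 1.29-fold, with a log2 fold change of -0.37 ± 0.04 (edgeR adjusted p = 7.1e-09). Cdt1, the MCM loader that is destroyed once S phase begins, was at 235, 222 and 228 CPM against 203, 196 and 198 CPM, a log2 fold change of -0.20 ± 0.03 (edgeR adjusted p = 9.31e-07). Both genes were separated by line. Orc1, a subunit that binds ATP and is present mainly in G1, was at 24.3, 23.9 and 24.7 CPM against 27.0, 26.3 and 25.6 CPM. The Orc1 lines did not overlap, but the difference of 0.11 ± 0.05 on the log2 scale did not pass (edgeR adjusted p = 0.0513). It passed without LM2 replicate 3 (0.0457), with RLE scaling (0.0443) and with limma voom (0.0404). Cdc6, the ATPase that brings in the MCM ring, was at 56.8, 57.2 and 57.7 CPM and at 60.5, 56.2 and 56.6 CPM, with the LM2 libraries on both sides of the Parental ones (log2 fold change 0.01 ± 0.04, edgeR adjusted p = 0.768).

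The activators of the loaded helicase split. Cdc45, a core component of the active helicase, was at 45.9, 44.7 and 45.1 CPM in Parental and 54.4, 52.4 and 54.5 CPM in LM2. It rose 1.19-fold, a log2 fold change of 0.25 ± 0.04 (edgeR adjusted p = 3.62e-06). Mcm10, a firing factor that is not part of the MCM ring, was at 128, 131 and 126 CPM against 116, 119 and 113 CPM, and fell by 0.15 ± 0.03 on the log2 scale (edgeR adjusted p = 0.000145). Every LM2 library lay above every Parental library for Cdc45 and below for Mcm10.

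Of the GINS tetramer, which binds the MCM ring together with Cdc45, 2 subunits fell and 2 did not pass. Gins3 was the least abundant, at 16.1, 16.8 and 16.0 CPM in Parental and 11.7, 11.6 and 11.5 CPM in LM2, 1.40-fold lower (log2 fold change -0.49 ± 0.06, edgeR adjusted p = 2.58e-07). Gins4 was at 53.1, 52.8 and 50.5 CPM against 45.6, 44.6 and 46.1 CPM (log2 fold change -0.20 ± 0.04, edgeR adjusted p = 8.89e-05). For both, the highest LM2 library lay below the lowest Parental library. Gins1 was at 33.98, 35.3 and 35.1 CPM against 35.9, 34.6 and 32.3 CPM, and the lines overlapped (log2 fold change -0.02 ± 0.05, edgeR adjusted p = 0.707). Gins2 was at 56.6, 56.7 and 57.4 CPM against 55.2, 57.6 and 55.2 CPM, again with overlap (log2 fold change -0.02 ± 0.03, edgeR adjusted p = 0.567). Its direction depended on length correction: the log2 fold change was 0.10 with effective-length offsets, which did not pass either. Gins2 shares 66.2% of its 31-base words with Gse1, an abundant gene at 148 and 124 CPM, so its counts are uncertain.

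All 6 polymerase and primase genes passed the test, 4 lower and 2 higher, so subunits of 1 enzyme moved apart. Prim1, the catalytic primase subunit, showed the largest difference of the 37 genes: 66.6, 64.5 and 64.8 CPM in Parental against 38.6, 39.3 and 38.3 CPM in LM2. It was 1.69-fold lower, with a log2 fold change of -0.75 ± 0.04 (edgeR adjusted p = 5.13e-14). Pola1, the catalytic subunit of polymerase alpha, was at 126, 132 and 125 CPM against 99.4, 105 and 102 CPM (log2 fold change -0.32 ± 0.03, edgeR adjusted p = 4.55e-09). Pola2, its accessory subunit, moved the other way, from 103, 105 and 103 CPM to 126, 124 and 125 CPM (log2 fold change 0.27 ± 0.03, edgeR adjusted p = 1.36e-08). None of these 3 genes had overlapping lines. Prim2, the large primase subunit with the iron-sulphur cluster, was at 30.9, 31.1 and 28.1 CPM against 27.9, 26.5 and 26.3 CPM (log2 fold change -0.16 ± 0.05, edgeR adjusted p = 0.0114). The Prim2 call was lost without Parental replicate 1 (edgeR adjusted p = 0.0544) or 2 (0.0575).

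Among the leading and lagging strand polymerases, Pold1, the catalytic subunit of polymerase delta, was at 204, 197 and 205 CPM in Parental and 175, 177 and 174 CPM in LM2. It fell by 0.20 ± 0.03 on the log2 scale (edgeR adjusted p = 4.01e-07), with no overlap. Pole, the catalytic subunit of polymerase epsilon, was at 143, 142 and 145 CPM against 146, 158 and 151 CPM, a log2 fold change of 0.08 ± 0.03 (edgeR adjusted p = 0.0171). The call for Pole did not hold without Parental replicate 1 (edgeR adjusted p = 0.0564), Parental replicate 2 (0.0736) or LM2 replicate 2 (0.197), nor with upper-quartile scaling (0.0574).

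The clamp and its loader had few calls. Of the 5 genes Rfc3 passed, at 28.8, 29.9 and 28.7 CPM in Parental and 34.4, 33.2 and 32.0 CPM in LM2, 1.14-fold higher (log2 fold change 0.19 ± 0.05, edgeR adjusted p = 0.00164). Pcna, the sliding clamp itself, was at 189, 186 and 181 CPM against 192, 186 and 185 CPM (log2 fold change 0.02 ± 0.03, edgeR adjusted p = 0.53). The lines overlapped for Pcna, and 23.3% of its 31-base words also occur in Pcna-ps2, a pseudogene at 19.9 and 19.3 CPM. Rfc2 was at 73.3, 74.0 and 73.6 CPM against 73.1, 73.1 and 73.4 CPM, and Rfc5 at 111, 112 and 111 CPM against 115, 115 and 109.6 CPM. Both loader subunits thus lay within the spread of the libraries (edgeR adjusted p = 0.834 and 0.581). Transcripts not annotated as protein coding carried 92.8% (Parental) and 92.6% (LM2) of the Rfc2 TPM. Rfc4 was at 56.3, 52.7 and 52.2 CPM against 50.8, 50.4 and 51.2 CPM (log2 fold change -0.08 ± 0.04, edgeR adjusted p = 0.0643). It passed as lower without Parental replicate 3 (0.0411) and with protein-coding transcripts only (0.0242).

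Both enzymes that finish the lagging strand were lower in LM2. Fen1, the nuclease that trims the flap at each Okazaki fragment, was at 85.7, 93.5 and 86.0 CPM in Parental and 81.0, 78.5 and 78.7 CPM in LM2 (log2 fold change -0.15 ± 0.04, edgeR adjusted p = 0.000595). Lig1, the ligase that seals the nick, was at 138, 139.6 and 139.8 CPM against 127, 129.9 and 122 CPM (log2 fold change -0.14 ± 0.03, edgeR adjusted p = 0.000156). Neither overlapped between the lines. Of the 31-base words of Fen1 79.6% also occur in other genes, chiefly Gm10143, and the Lig1 call was lost on log2(TPM + 1) values (limma adjusted p = 0.104).

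All 4 enzymes that supply nucleotides fell, and their median log2 fold change of -0.23 was the lowest of the 9 groups. Rrm2, the small subunit of ribonucleotide reductase whose level limits the enzyme in S phase, was at 247, 241 and 243 CPM in Parental and 168, 167 and 155 CPM in LM2. That is 1.49-fold lower, a log2 fold change of -0.58 ± 0.03 (edgeR adjusted p = 2.31e-13). Rrm1, the large subunit, was at 401, 398 and 392 CPM against 326, 338 and 318 CPM, a smaller fall of 1.21-fold (log2 fold change -0.28 ± 0.03, edgeR adjusted p = 2.87e-09). The 2 subunits of 1 enzyme therefore differed in the same direction by different amounts. Tk1, the thymidine kinase of the salvage pathway, was at 122, 119.6 and 119 CPM against 105, 106 and 106 CPM (log2 fold change -0.19 ± 0.03, edgeR adjusted p = 3.31e-06). Tyms, which makes thymidylate, was at 51.2, 49.3 and 45.9 CPM against 43.6, 43.1 and 42.1 CPM (log2 fold change -0.19 ± 0.04, edgeR adjusted p = 0.000663). No LM2 library reached the lowest Parental library for any of the 4 genes. Transcripts not annotated as protein coding carried 62.4% (Parental) and 66.3% (LM2) of the Tyms TPM.

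Of the 4 regulators of S phase, 3 were higher in LM2 and 1 lower. E2f1, the transcription factor that activates many genes of S phase, was at 34.2, 35.4 and 36.0 CPM in Parental and 50.7, 50.3 and 50.5 CPM in LM2. It rose 1.43-fold, a log2 fold change of 0.52 ± 0.04 (edgeR adjusted p = 1.86e-10), the largest rise among the 37. Uhrf1, which brings the maintenance DNA methyltransferase to newly made DNA, was at 305, 308 and 308 CPM against 333, 338 and 326 CPM (log2 fold change 0.11 ± 0.02, edgeR adjusted p = 0.000264). Both were separated by line. Of the 31-base words of Uhrf1, 24.2% are shared, mainly with the near-silent Gm5648.

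The E cyclins, partners of Cdk2 at the start of S phase, went in opposite directions by small amounts. Ccne1 was at 69.6, 68.9 and 70.8 CPM in Parental and 65.7, 59.8 and 65.7 CPM in LM2 (log2 fold change -0.13 ± 0.04, edgeR adjusted p = 0.00397), a call lost with effective-length offsets (0.0922). Ccne2 was at 59.5, 58.8 and 57.3 CPM against 69.7, 63.2 and 59.2 CPM, with overlap (log2 fold change 0.13 ± 0.05, edgeR adjusted p = 0.0378). The Ccne2 call was lost without any 1 of Parental replicates 1, 2 and 3 (edgeR adjusted p = 0.0685, 0.0992 and 0.131) or LM2 replicates 1 and 2 (0.22 and 0.084). It was lost under 9 of 18 alternatives, the most for any of the 28 called genes.

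Levels can be compared between genes as TPM, which divides counts by transcript length and scales each library to the same total. In Parental, Pcna (209 ± 4.89 TPM, SD, n = 3), Mcm7 (203 ± 3.18), Rrm1 (197 ± 5.90), Mcm5 (187 ± 3.29) and Rrm2 (182 ± 2.19) were the most abundant. The libraries of neighbours in that order overlapped from Pcna to Mcm7, Mcm7 to Rrm1 and Mcm5 to Rrm2, and Rrm1 did not overlap Mcm5. Cdt1 came next, at 181 ± 4.78 TPM, and overlapped Rrm2. Gins3 was the lowest, at 11.5 ± 0.241 TPM in Parental and 8.76 ± 0.501 TPM in LM2, and Orc1 the next, at 15.7 ± 1.57 and 18.2 ± 0.395 TPM. Subunits that join in equal numbers thus did not have equal transcript levels: within GINS the range in Parental ran from Gins3 to Gins4 at 66.9 ± 1.95 TPM. Within the helicase ring, Mcm4 was lowest at 83.6 ± 1.74 TPM.

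Mcm5 made up a smaller share of the MCM transcripts in LM2. Of the TPM of the 6 MCM genes, Mcm5 made up 22.3%, 21.99% and 22.6% in Parental and 16.7%, 16.2% and 16.4% in LM2. Mcm5 was second to Mcm7 (24.2 ± 0.301%) in Parental, and in LM2 it overlapped Mcm6 (16.3 ± 0.154%). Among the 6 polymerase and primase genes, Prim1 went from 18.7 ± 0.417% to 12.01 ± 0.203%, while Pola2 went from 23.0 ± 0.752% to 29.8 ± 0.205%. Every other MCM gene took a larger share in LM2, as shares sum to 100%. With 3 libraries against 3, an exact two-sided permutation test of such a share cannot go below p = 0.1, so the shares are given as a description.

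**Figure D2:**
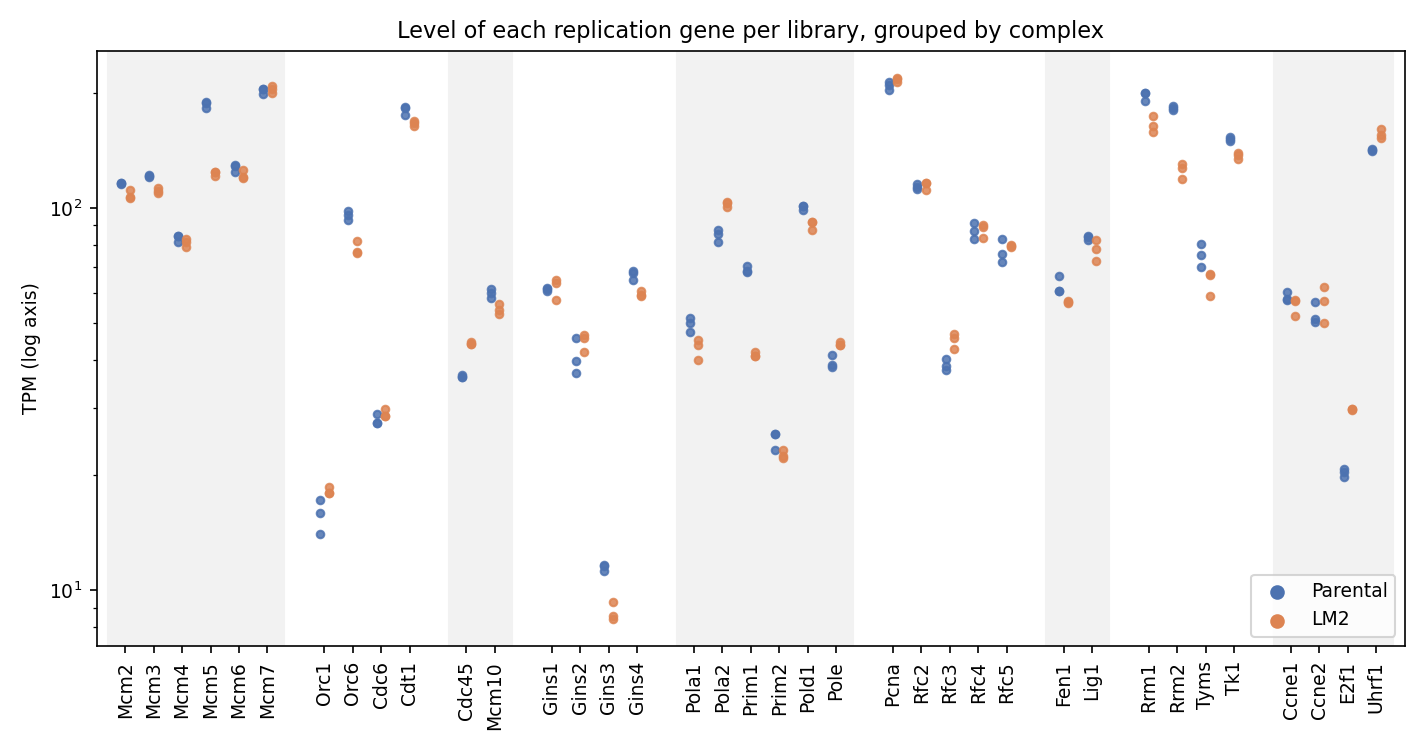
TPM on a log axis for each replication gene, 1 point per library (blue, Parental; orange, LM2; 3 each), with shaded bands alternating between the 9 groups. Mcm5, Prim1 and Rrm2 are lower in LM2, E2f1 and Pola2 are higher, and Gins3 and Orc1 are the lowest in both lines.

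Several of the largest differences lay on chromosomes where most genes differed in the same direction. On chromosome 8, 64.4% of 696 tested genes outside the list were lower in LM2 and their median log2 fold change was -0.31. The 6 replication genes there were Mcm5 (-0.61), Gins3 (-0.49), Orc6 (-0.37), Cdt1 (-0.20), Gins4 (-0.20) and Gins2 (-0.02), of which 5 were lower, with a median of -0.28. That median was near the median of their chromosome. Orc6 lay at the median of its neighbours, the 10 tested genes on either side (-0.36, with 17 of 20 below 0). Mcm5 lay further down than its neighbours (-0.40, with 17 of 20 below 0). Gins3 and Gins4 had neighbours with medians of -0.15 and -0.04. Relative to the chromosome median, the values of Cdt1 and Gins4 turned positive (0.11 for each) and that of Gins2 was 0.29.

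Chromosomes 10 and 4 showed the same kind of background in opposite directions. Prim1, the only one of the 37 on chromosome 10, stood at -0.75 where the other 661 genes had a median of -0.33 (62.8% lower) and its 20 neighbours -0.41. On chromosome 4, 73.6% of 827 genes were higher and 4.59% lower, with a median of 0.39. Orc1 (0.11) and Ccne2 (0.13) lay below that median, so their values relative to the chromosome were -0.27 and -0.26. Rrm2 on chromosome 12 (median -0.18) stood at -0.58, and Mcm2 on chromosome 6 (median -0.18) at -0.14. The 20 neighbours of Rrm2 had a median of -0.10 and those of Mcm2 a median of 0.04. Copy number was not measured, and its part in these values was not tested.

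Outside chromosomes 4, 6, 8, 10 and 12, chromosome medians lay between -0.09 (X) and 0.07 (chromosome 19). Of the 26 replication genes there 13 were lower and 6 higher, with a median of -0.08. Among all 9977 tested genes there 26.7% were lower and 31.9% higher, with a median of 0.01. All 4 on chromosome 7 (Pold1, Lig1, Rrm1 and Ccne1) were lower, where 22.8% of the other genes were. The same held for the 3 on chromosome 1 (Mcm3, Mcm6 and Prim2, with 23.2% of the others lower). The calls of Lig1, Ccne1, Mcm6 and Prim2 were lost under some alternatives. On chromosome 5, 1 of 6 was lower and 2 were higher, where 28.2% of the other genes were lower. On chromosome 2, 1 of 4 was lower and 1 higher, where 29.9% of the others were lower. Relative to the median of its own chromosome E2f1 stood at 0.52 on chromosome 2, Pola2 at 0.20 on chromosome 19 and Cdc45 at 0.21 on chromosome 16. Rfc3 stood at 0.19 on chromosome 5, where it had only 10 neighbours, with a median of 0.16.

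**Figure D3:**
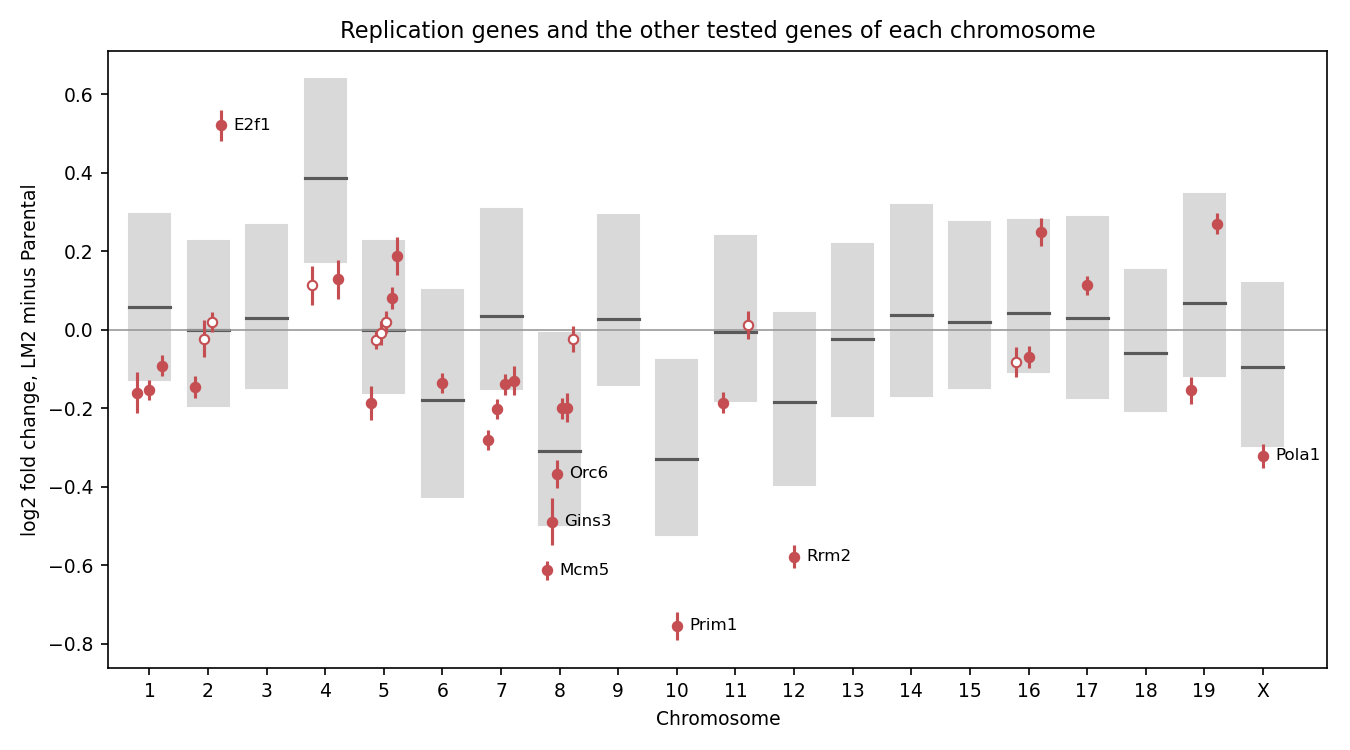
Log2 fold change (LM2 minus Parental) by chromosome: grey boxes span the quartiles of the tested genes outside the list with the median as a dark line, and red points are replication genes with their SE (filled, passed the test; open, did not). Chromosome 4 sits above 0 and chromosomes 8 and 10 below, and Mcm5, Prim1, Rrm2, Pola1 and E2f1 are among the genes that lie outside the quartiles of their chromosome.

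Direction was similar in genes with and without an E2F-type promoter word. Of the 13 genes with an E2F-type word 8 were lower, 2 higher and 3 not called, with a median log2 fold change of -0.14. Of the 16 genes whose window had none, 10 were lower, 3 higher and 3 not called, with the same median of -0.14. The printed promoters show this range: Mcm5 was at -0.61, Mcm3 at -0.15, Mcm6 at -0.09, Mcm7 at -0.03 and Rfc3 at 0.19.

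Sums per gene hide shifts between transcripts, so the 80 transcripts that made up at least 5% of a gene's TPM in a line were compared. In 18 of them (22.5%) the shares did not overlap between the lines, against 17.9% of 23468 such transcripts of all tested genes of at least 10 CPM. In 10 of the 18, from 8 genes, the mean shares also differed by at least 4 percentage points (12.5% of the 80, against 10.6%). All 3 Mcm5 transcripts of that size were lower in LM2. The main one, Mcm5-203, was at 113, 105 and 105 TPM in Parental and 68.7, 69.0 and 66.9 TPM in LM2, Mcm5-201 at 52.4, 55.6 and 59.2 against 42.5, 45.0 and 42.6 TPM, and Mcm5-205 at 19.6, 18.9 and 21.2 against 9.15, 7.92 and 8.85 TPM. The log2 ratio of the means was -0.66, -0.36 and -1.20 in that order, so the size of the difference varied between annotated forms. For Gins2 the coding transcript Gins2-201 was at 20.8 ± 0.797 TPM in Parental and 20.6 ± 0.775 TPM in LM2. A form with a retained intron, Gins2-204, was at 5.34, 8.13 and 4.70 TPM against 14.1, 9.86 and 11.0 TPM. Every LM2 library lay above every Parental library for the retained form, while the coding form overlapped, and the words that Gins2 shares with Gse1 limit both values.

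Shares also differed without overlap in other genes. The share of the Cdt1 form with a retained intron, Cdt1-203, was 8.04 ± 2.72% in Parental and 12.4 ± 1.14% in LM2. The share of the noncoding form Ccne2-205 was 28.6 ± 2.24% and 21.4 ± 2.27%, and that of the main coding form of Orc6, Orc6-201, 78.3 ± 1.94% and 73.2 ± 1.06%. kallisto divides reads between overlapping forms by likelihood, and the error of that division is not part of these SDs.

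**Figure D4:**
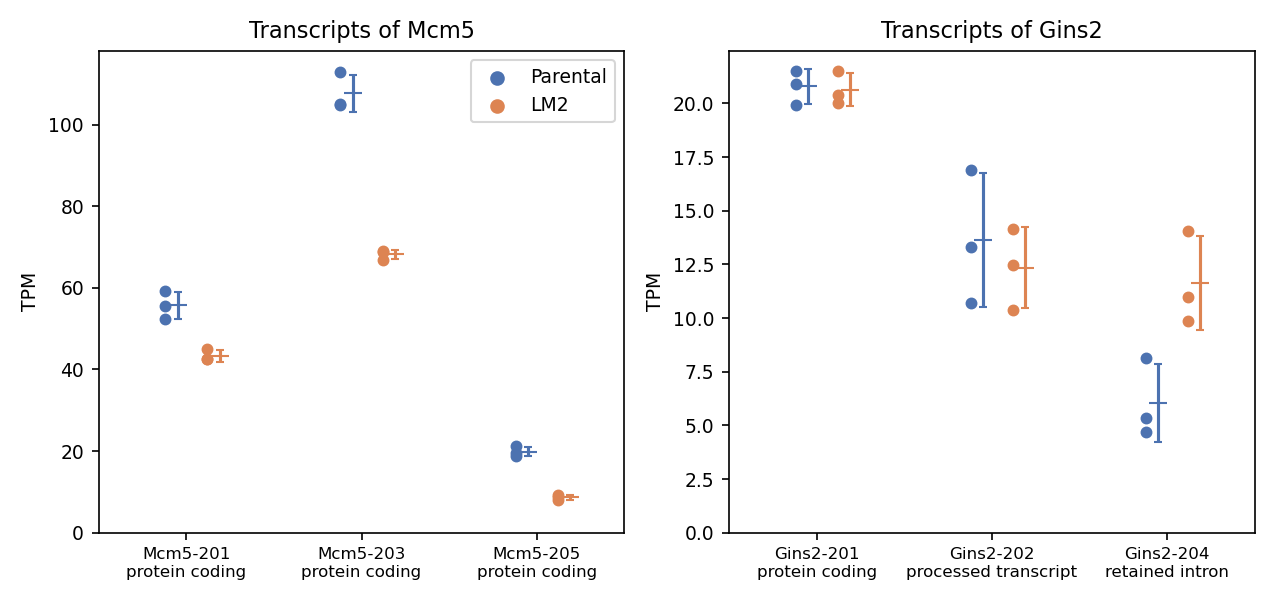
TPM of the transcripts of Mcm5 (left) and Gins2 (right) that made up at least 5% of the gene, 1 point per library (blue, Parental; orange, LM2), with the mean and SD of 3 libraries beside the points and the annotated type under each name. All 3 Mcm5 forms are lower in LM2, while of the Gins2 forms only the retained intron form is higher without overlap.

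Other genes of the pathway were also mostly lower in LM2. Of 85 tested genes in 8 further lists 51 were lower (60.0%), 14 higher (16.5%) and 20 not called, with a median log2 fold change of -0.13. Among other origin factors 6 of 11 were lower and 1 higher: Orc3, a subunit of the origin recognition complex on chromosome 4, rose 1.35-fold from 52.8 to 71.4 CPM, while Orc5 and the MCM relative Mcm9 (chromosome 10) fell by 0.32 and 0.42 on the log2 scale. Among 12 fork factors 7 were lower and 3 higher. Rpa2 and Rpa3, which share a trimer that coats single-stranded DNA, differed by 0.39 and -0.35 on the log2 scale. Rpa2 lies on chromosome 4, whose median was also 0.39, and Rpa3 on chromosome 6 (median -0.18). Timeless, a fork protection factor on chromosome 10, fell 1.29-fold and the helicase Recql4 rose 1.15-fold. Of 6 further polymerase subunits, Pole3 (chromosome 4) rose by 0.26 on the log2 scale and Pole2 (chromosome 12) and Pold2 fell 1.13-fold and 1.07-fold, with 3 not called.

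Enzymes of fragment maturation, topology and nucleotides were mostly lower. Dna2, a nuclease and helicase that cuts long flaps, was at 28.9, 30.9 and 30.0 CPM in Parental and 10.9, 10.1 and 13.02 CPM in LM2. This fall of 2.63-fold (log2 fold change -1.39 ± 0.07, edgeR adjusted p = 1.19e-11) exceeded that of any of the 37 genes and lay on chromosome 10, like that of Prim1. In the same list 6 of 7 genes were lower and none higher, among them topoisomerase Top1 (1.22-fold). Among 11 further nucleotide genes 7 were lower and 1 higher: the mitochondrial kinase Tk2 (chromosome 8) fell 1.31-fold, while Cmpk1 on chromosome 4 rose 1.28-fold. Of 7 further clamp loader and clamp genes 5 were lower and none higher, as Rfc1 (1.19-fold) and Chtf8 (1.17-fold, chromosome 8). Of 10 chromatin assembly genes 5 were lower and 3 higher, among them the maintenance methyltransferase Dnmt1 (1.22-fold) and Chaf1a (1.15-fold) upwards and the histone chaperones Asf1a (1.38-fold, chromosome 10) and Asf1b (1.24-fold, chromosome 8) downwards.

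Large differences were also found among the regulators upstream of these genes. Of 21 tested genes of the E2F and pocket protein list 13 were lower and 5 higher. Tfdp1, the usual dimer partner of E2F factors, was at 158, 160.2 and 159 CPM in Parental and 85.9, 79.7 and 78.2 CPM in LM2, 1.96-fold lower (log2 fold change -0.97 ± 0.03, edgeR adjusted p = 1.18e-16). Its relative Tfdp2 went the other way by nearly the same amount, from 35.9, 38.5 and 37.7 CPM to 73.3, 73.0 and 76.2 CPM (log2 fold change 0.99 ± 0.04, edgeR adjusted p = 7.98e-16). Tfdp1 is on chromosome 8 and Tfdp2 on chromosome 9. Rb1, the pocket protein that holds activating E2F factors, rose 2.24-fold from 7.72 ± 0.257 to 17.2 ± 0.795 CPM (SD, n = 3), and E2f8, a repressor of E2F targets, fell 1.52-fold from 192 to 127 CPM. Fbxw7, part of the ligase that marks cyclin E for destruction, is named after its values were seen, as it too lay outside the range of the 37 genes (0.71 on the log2 scale). All 10 mitotic marker genes were lower, with a median of -0.25, below that of the replication genes. They included Cdk1 (1.45-fold, chromosome 10) and Plk1 (1.29-fold), and the difference between the 2 lists was not tested.

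**Figure D5:**
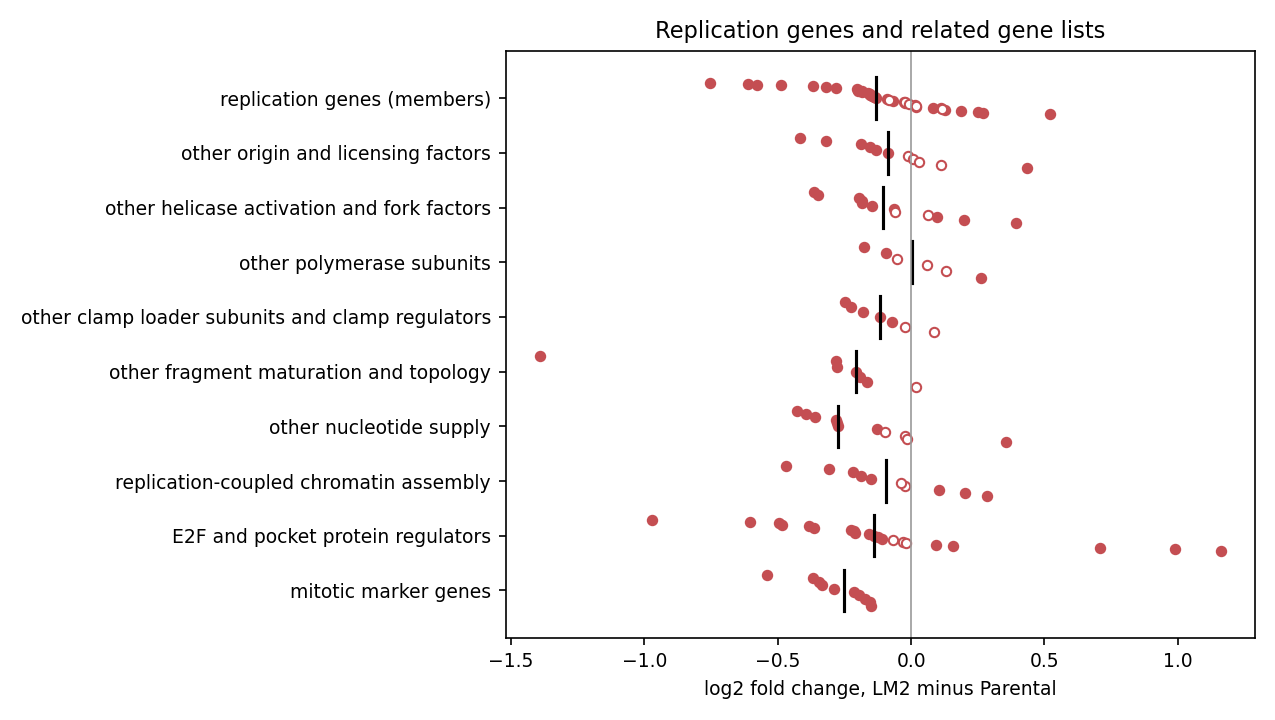
Log2 fold change (LM2 minus Parental) of each tested gene in the replication genes and 9 related lists (filled, passed the test; open, did not), with the list median as a black bar. Medians run from 0.00 for other polymerase subunits to -0.27 for other nucleotide supply, and Dna2, Tfdp1, Tfdp2, Rb1 and Fbxw7 lie outside the range of the replication genes.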

How the data were processed

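Reads of 3 Parental and 3 LM2 mRNA libraries were quantified by the authors with kallisto 0.46.2, with GRCm39 as the build, per the submitters' processing notes. The deposited values are estimated counts, TPM and effective lengths per transcript, and neither the transcript set version nor the strand setting is stated in these sources. Transcripts were matched to genes with GENCODE M21 (GRCm38), which matched 116408 of 117486 (99.1%). Gene order comes from that older build, and no coordinates were converted. Between 0.426% and 0.448% of estimated counts per library stayed unmatched.

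Estimated counts were summed per gene, rounded to whole numbers and tested with edgeR 4.0.16 in R 4.3.3 (filterByExpr, TMM, robust quasi-likelihood fit, Benjamini-Hochberg adjustment, adjusted p below 0.05). SEs were derived from the test statistic. TPM was summed per gene. The procedure was also run on simulated data in which only a small part of the genes was changed. That differs from these data, so its error rate here was not measured. Alternatives used limma 3.58.1 on log2(TPM + 1), DESeq2 1.42.0, other scalings and filters, and leaving out each library. The deposited log2 fold changes of the authors are used once, for comparison; edgeR 3.32.1 is listed in the submitters' processing notes. Their log base and direction are not written and were inferred from the values computed here.

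The 37 genes, the pathway and marker lists and the promoter words were chosen with earlier results of these data known. Every one of the 37 is named. From each marker list the most abundant gene, some genes near 0 and some that differed between the lines are named. From each pathway list up to 2 called genes per direction with at least 5 TPM in the higher line are named by size of change. One gene that this rule selects is not reported here. Sharing of sequence was measured as the percent of a gene's 31-base words that occur in transcripts of another gene.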

Additional observations from a re-analysis of the deposited data

How the results depend on the processing

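Of the 28 called replication genes, 21 (5 higher and 16 lower) kept their direction and call under all 18 alternatives, and no called gene changed sign in these fits. The 7 whose call was lost somewhere were Mcm4, Mcm6, Prim2, Pole, Lig1, Ccne1 and Ccne2. Between 22 and 29 of the 37 genes were called across the alternatives, and between 6703 and 8596 of all genes. Leaving out 1 library gave 24 to 28 and 7778 to 8258. A block for the replicate number gave 8250 calls, 28 of them replication genes (7 higher, 21 lower). Same-numbered libraries did not deviate together (correlations -0.08, 0.05 and 0.01). With 3 libraries per line, this cannot show whether the numbers pair them. Upper-quartile scaling moved the median of all genes to -0.02, and no scaling moved it by over 0.1.

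Uncalled genes near 0 changed sign, and the cause was not tested. On log2(TPM + 1) and log2(TPM + 0.1) these were Mcm7 (0.0108 in both), Gins1 (0.0147 and 0.0148), Gins2 (0.136 and 0.139), Rfc2 (0.0118 and 0.0119) and Rfc4 (0.00822 and 0.00831). Without a low-count filter they were Cdc6 (-0.0103), Pcna (-0.00354) and Rfc5 (-0.0043), and without LM2 replicate 1 the same genes (-0.0277, -0.00301 and -1.87e-05). Over the fits that leave out 1 library, Cdc6 ranged from -0.0277 to 0.0275, Pcna from -0.00301 to 0.0334, Rfc5 from -1.87e-05 to 0.0389 and Gins1 from -0.0634 to 0.0166. Others were Cdc6 with upper-quartile factors (-0.00527), Gins2 with effective-length offsets (0.102) and Rfc2 with protein-coding transcripts only (0.0161). Among called genes, centring on the chromosome median turned Mcm2 (0.0421), Cdt1 (0.11), Gins4 (0.112) and Ccne2 (-0.26), and centring on neighbouring genes turned Cdt1 (0.068) and Ccne2 (-0.368), because the subtracted median exceeded their own value. Among uncalled genes Orc1 and Gins2 turned under both, and Cdc6, Gins1 and Rfc5 on neighbours.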

Other observations

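The authors' deposited table of log2 fold changes lists 11004 named genes, all 37 replication genes among them, and 10531 were also tested here. The median absolute difference from the values computed here was 0.02, against 0.44 with the sign reversed. In the authors' deposited table Prim1 stood at -0.77 and E2f1 at 0.52, where edgeR on summed counts gave -0.75 and 0.52. The sign was the same for 35 of the 37. Gins2 (0.11 in the authors' deposited table, -0.02 here) and Rfc2 (0.02 and -0.01) were the exceptions, and neither passed the test here. Mcm5 differed most, at -0.39 in the authors' deposited table and -0.61 here. For comparison, the log2 ratio of mean TPM was -0.36 for the transcript Mcm5-201 alone and -0.66 for Mcm5-203, and how the authors summed transcripts was not tested.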
